A study of Homo sapiens with 2 samples.

Results

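YAP1, its paralog WWTR1, the 4 TEAD transcription factors and the target genes CCN1, CCN2, ANKRD1 and AMOTL2 were examined in ovarian cancer cells with and without CARM1. These 10 genes were chosen by name, as the coactivators of the Hippo pathway, the factors that carry them to DNA and widely used readouts of their activity, and all 10 were found by Ensembl identifier among the 57736 genes counted. RNA had been sequenced from parental A1847 cells, a human epithelial ovarian cancer line with wild type CARM1, and from A1847 cells in which CARM1 was knocked out with a lentiviral CRISPR vector (CARM1 KO). CARM1 is an arginine methyltransferase that acts on histones and other nuclear proteins. The CARM1 KO cells were described as a single clone, both cultures were grown in the same serum-containing medium, and no inhibitor treatment is given for either. The authors selected cells infected with viruses encoding puromycin resistance in puromycin. The parental cells were not described as infected with a control vector. Where a pair of read counts is given, the first is that of parental and the second that of CARM1 KO cells. Each condition had 1 library (30741953 and 32300391 reads, respectively), so no difference has a replicate check and no P value is given. A clone and its parental population may differ for reasons other than CARM1, and these cannot be told apart here.

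The Hippo pathway is a kinase cascade in which STK3 and STK4 activate LATS1 and LATS2, which phosphorylate YAP and TAZ (the product of WWTR1) and keep them out of the nucleus. Unphosphorylated YAP and TAZ enter the nucleus, bind the TEAD factors and switch on genes for growth, matrix and cytoskeleton. The pathway responds to cell density, cell junctions and the stiffness of the surroundings, and YAP is known as a growth-promoting factor in ovarian cancer. Much of this control acts on the proteins, which RNA counts do not show.

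TEAD factors bind the motif GGAATG, known as MCAT. It was searched on both strands (CATTCC on the other) in RefSeq promoter windows of build GRCh38.p14, each of 300 bases from 250 before to 50 after a transcript start. Windows were matched for 7 of the 10 genes and not for CCN1, TEAD1 or TEAD4. Of all 35116 windows, 14.0% held the motif at least once, 1.37% at least 2 times and 0.128% at least 3 times. The CCN2 window held 3 matches, all before the start, and the ANKRD1 window held 2. YAP1 held 1 match, 1 of the 2 AMOTL2 windows held 1 on the other strand, and the windows of WWTR1, TEAD2 and TEAD3 held none. The stretches before the start that hold a match are printed from 5′ to 3′ on the strand of the gene, with the motif in capitals, because the genes with most matches, CCN2 and ANKRD1, behaved differently in CARM1 KO cells. The whole 250 bases are given for CCN2 (chr6:131951373-131951622, minus strand) and ANKRD1 (chr10:90921088-90921337, minus strand), and 60 bases for AMOTL2 (chr3:134374484-134374543, minus strand) and YAP1 (chr11:102110258-102110317, plus strand). A match describes the letters only and shows no binding.
CCN2: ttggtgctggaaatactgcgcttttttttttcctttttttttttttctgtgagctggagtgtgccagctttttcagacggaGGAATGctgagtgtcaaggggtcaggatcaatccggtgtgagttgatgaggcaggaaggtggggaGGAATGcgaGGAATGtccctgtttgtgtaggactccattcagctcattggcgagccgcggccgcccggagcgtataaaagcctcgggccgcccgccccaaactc
ANKRD1: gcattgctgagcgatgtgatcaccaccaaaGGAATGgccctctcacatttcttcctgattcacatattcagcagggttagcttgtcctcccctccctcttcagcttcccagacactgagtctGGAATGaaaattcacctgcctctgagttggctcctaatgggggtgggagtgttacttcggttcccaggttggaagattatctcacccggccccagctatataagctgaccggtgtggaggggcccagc
AMOTL2: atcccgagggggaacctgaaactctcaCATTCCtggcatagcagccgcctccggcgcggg
YAP1: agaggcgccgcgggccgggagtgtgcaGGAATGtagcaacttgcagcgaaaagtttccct

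After TMM scaling in edgeR, counts were compared as fold changes of CARM1 KO over parental cells. The exact binomial intervals, at a level of 95%, reflect counting error alone. The authors required a fold change above 3 together with an edgeR FDR under 0.05. Here the fold limit of 3 was applied alone, in either direction, to genes with 10 or more reads summed over the libraries. Levels are given as RPKM, here reads per kilobase of annotated exon per 1000000 TMM-scaled reads, worked out from the deposited counts. CARM1, the targeted gene, had 975 and 380 reads, 2.63-fold lower (95% interval 2.33 to 2.97). In bulk RNA, fewer cells of a type and less RNA per cell cannot be told apart.

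Among the 10 genes, CCN1 and ANKRD1 were more than 3-fold higher and TEAD2 was more than 3-fold lower in CARM1 KO cells. The other 7 lay within 3-fold. Of all 18563 genes with at least 10 reads, 12.8% were more than 3-fold higher and 11.7% more than 3-fold lower. The 10 genes had between 526 and 35997 reads in all, and of the 13149 genes with at least 100 reads the shares were 10.4% and 7.33%. A count of 2 higher and 1 lower among 10 genes is near these shares, so the individual genes rather than their number are described.

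**Figure D1:**
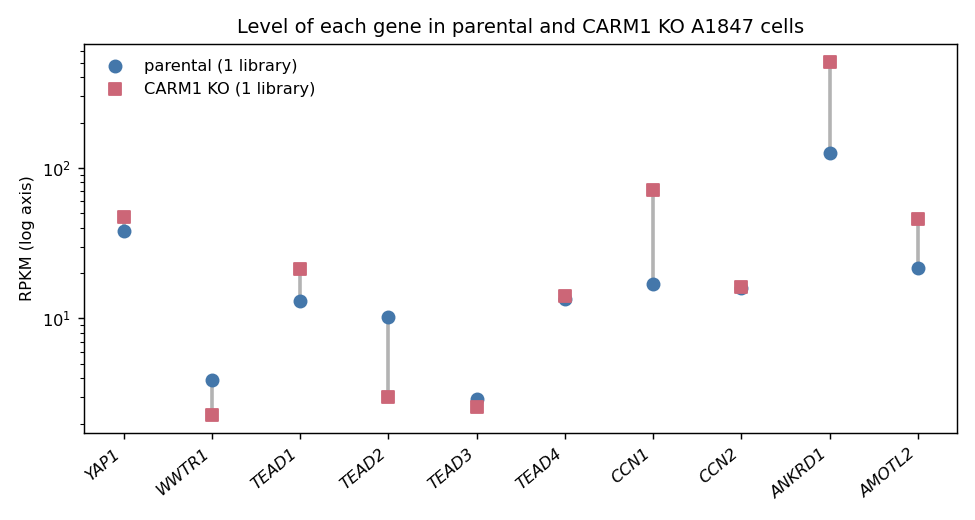
Level in RPKM on a log axis of the 10 genes in the parental library (circles) and the CARM1 KO library (squares), with a line joining the values of each gene. ANKRD1 and CCN1 stand higher in CARM1 KO cells, TEAD2 stands lower, and the symbols of CCN2 and TEAD4 nearly coincide.

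YAP1 was by far the more abundant coactivator in both libraries. It had 7441 and 9484 reads, a 1.24-fold higher count (95% interval 1.21 to 1.28), and its level was 37.9 RPKM in parental and 47.1 RPKM in CARM1 KO cells. WWTR1, which encodes TAZ, had 1005 and 603 reads and was 1.71-fold lower (95% interval 1.54 to 1.89). Neither passed the fold limit. In parental cells YAP1 held 90.7% of their summed RPKM, and in CARM1 KO cells 95.4%. With the longest transcript as the length, these shares were 87.3% and 93.6%. The reads of YAP1 over those of WWTR1 were 7.40 in parental and 15.7 in CARM1 KO cells, a ratio that does not depend on scaling and that changed 2.12-fold (95% interval 1.91 to 2.36). The summed RPKM was 41.7 in parental and 49.4 in CARM1 KO cells.

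The TEAD factors supply the DNA binding that YAP and TAZ lack. Their summed level hardly differed, at 39.8 RPKM in parental and 40.9 RPKM in CARM1 KO cells, but its make-up did. TEAD2 had 950 and 286 reads, 3.40-fold lower, with a 95% interval of 2.98 to 3.90 that began just under the fold limit. TEAD1 had 4377 and 7240 reads and was 1.62-fold higher (95% interval 1.56 to 1.68). TEAD4, with 959 and 1026 reads, was 1.04-fold higher, and TEAD3, with 277 and 249 reads, was 1.14-fold lower. The 95% intervals of both, 0.956 to 1.14 for the fold of TEAD4 and 0.737 to 1.05 for that of TEAD3, included no change. Per length of annotated exon, TEAD1 and TEAD4 stood side by side in parental cells, with 33.0% and 34.0% of the summed TEAD level. In CARM1 KO cells TEAD1 alone held 51.8%, while TEAD2 went from 25.7% to 7.35%. With the longest transcript as the length, TEAD1 held 30.8% in parental and 49.0% in CARM1 KO cells. TEAD4 then held 37.2% and 38.2%, so the 2 were less close in parental cells. The ratio of TEAD1 to TEAD2 reads was 4.61 in parental and 25.3 in CARM1 KO cells.

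**Figure D2:**
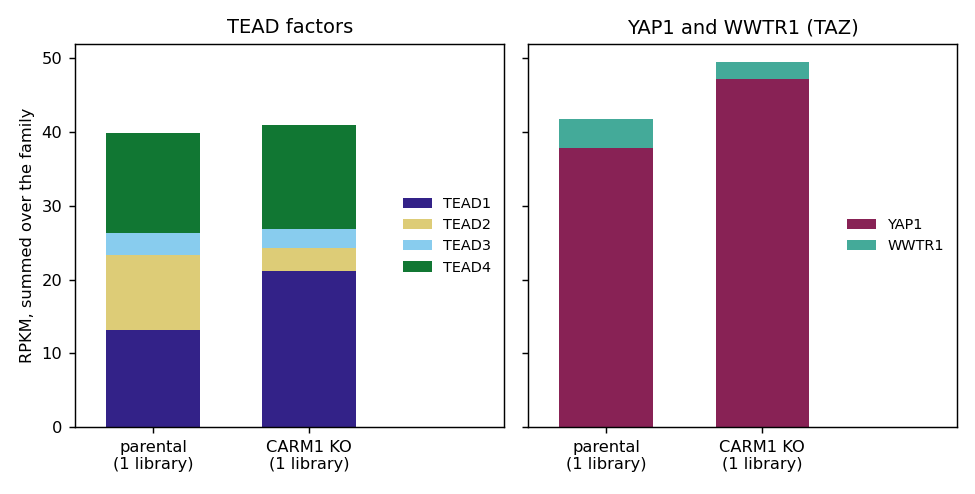
Stacked bars of the level in RPKM of TEAD1 to TEAD4 (left) and of YAP1 and WWTR1 (right) in the parental and CARM1 KO libraries, 1 library per bar. The TEAD bars reach 39.8 and 40.9 RPKM, with TEAD2 shrinking from 10.2 to 3.01 RPKM and TEAD1 growing from 13.1 to 21.2 RPKM.

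The 4 target genes did not move as a block. CCN1 (CYR61), a secreted matricellular protein that binds integrins, lies on chromosome 1 of GRCh37 from 86046444 to 86050272. It had 1960 and 8436 reads, a 4.20-fold higher count (95% interval 4.002 to 4.42). ANKRD1, an ankyrin-repeat protein best known from stressed heart muscle, lies on chromosome 10 from 92671853 to 92680844. It had 7013 and 28984 reads, 4.04-fold higher (95% interval 3.93 to 4.14). At 126 RPKM in parental and 508 RPKM in CARM1 KO cells it was the most abundant of the 10 genes in both, and it stood at rank 241 and rank 49 among all genes with an annotated length.

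AMOTL2, an angiomotin-like junction protein that binds YAP and holds it back, had 4331 and 9375 reads. It was 2.11-fold higher (95% interval 2.04 to 2.19), under the fold limit. CCN2 (CTGF), the relative of CCN1 that is often measured beside it, had 1166 and 1200 reads. Its fold change was 1.01 with a 95% interval of 0.927 to 1.09, well short of the difference of CCN1 between the same libraries. Per length of annotated exon, 3698 bases for CCN1 and 2338 bases for CCN2, the levels of CCN1 and CCN2 were 17.0 and 16.0 RPKM in parental cells. That closeness rests on the lengths used, since CCN1 had 1.68 times the reads of CCN2 there. In CARM1 KO cells the levels of CCN1 and CCN2 were 71.5 and 16.1 RPKM. Relative to CCN2 in the same library, which removes the scaling, CCN1 was 4.18-fold higher (95% interval 3.81 to 4.60), ANKRD1 4.02-fold higher (95% interval 3.69 to 4.37) and AMOTL2 2.10-fold higher (95% interval 1.93 to 2.30). These ratios were chosen after the values were seen. CCN2, whose printed stretch holds the motif 3 times, was the target that stayed level. ANKRD1, which holds it 2 times, was among those that did not. No window was matched for CCN1, and the number of matches was not tested against the fold change.

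The directions of 9 of the 10 genes were the same with library size only, DESeq2 size factors and upper-quartile scaling, whereas the log2 fold change of CCN2 ranged from -0.03 to 0.04. CCN1, ANKRD1 and TEAD2 also passed edgeR's exact test at an FDR under 0.05 with an assumed coefficient of variation of 0.12. With an assumed coefficient of 0.4 none of them did, and without replicates the data do not say which value applies.

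**Figure D3:**
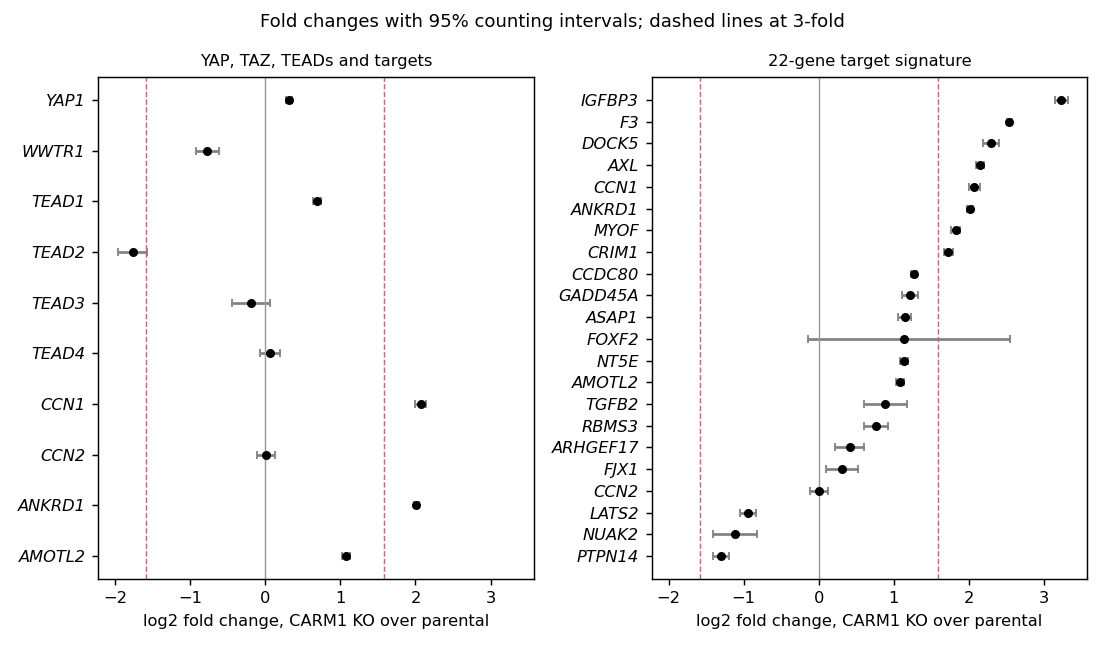
Log2 fold change of CARM1 KO over parental cells with 95% counting intervals for the 10 genes (left) and for the 22 genes of a YAP/TAZ target signature (right), with dashed lines at 3-fold. CCN1 at 2.07 and ANKRD1 at 2.01 lie past the upper line, TEAD2 at -1.77 lies just past the lower line, and 19 of the 22 signature genes lie above 0.

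A signature of 22 YAP and TAZ target genes, of which CCN1, CCN2, ANKRD1 and AMOTL2 are part, was followed for the wider set of targets. All 22 had at least 10 reads. Of these, 8 (36.4%) were more than 3-fold higher in CARM1 KO cells and 0 more than 3-fold lower, against 12.8% and 11.7% of all genes, and 19 lay above 0. The median log2 fold change was 1.14, against -0.03 over all genes with at least 10 reads, of which 48.9% lay above 0. Without the 4 genes already described, 6 of 18 were more than 3-fold higher and the median was again 1.14. Of all genes with at least 100 reads, 10.4% were more than 3-fold higher and 7.33% more than 3-fold lower. No test of the signature against other genes was made.

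The largest difference in the signature was that of IGFBP3, which binds insulin-like growth factors outside the cell. It had 1280 and 12315 reads, 9.40-fold higher (95% interval 8.87 to 9.96). F3, the tissue factor that starts blood coagulation, had 7575 and 45073 reads and was 5.81-fold higher. With 490 RPKM it came close to ANKRD1 in CARM1 KO cells. DOCK5, an activator of the GTPase Rac, had 881 and 4428 reads (4.91-fold higher), and the receptor tyrosine kinase AXL had 3361 and 15250 reads (4.43-fold higher). MYOF, a membrane repair protein, was 3.54-fold higher with 3294 and 11946 reads. CRIM1, a membrane protein that binds BMPs, was 3.31-fold higher with 3561 and 12084 reads.

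The 3 signature genes below 0 were PTPN14 (2680 and 1112 reads, 2.47-fold lower), NUAK2 (298 and 141 reads, 2.16-fold lower) and LATS2 (1922 and 1024 reads, 1.92-fold lower). PTPN14, a phosphatase that binds YAP, and LATS2, a kinase that phosphorylates it, are targets that act back on YAP as inhibitors. None of the 3 passed the fold limit. AMOTL2, another target of this kind, lay on the other side at 2.11-fold higher.

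Upstream of YAP, 24 kinases and adaptors of the Hippo cascade were measured, LATS2 of the signature among them, all with at least 10 reads. Past the limit, 1 (4.17%) was higher and 2 (8.33%) were lower, against 12.8% and 11.7% of all genes, and the median log2 fold change was 0.14. Of all genes with at least 100 reads, 10.4% were more than 3-fold higher and 7.33% more than 3-fold lower. The core kinases STK3 (1742 and 2501 reads) and STK4 (4014 and 5293 reads) were 1.40-fold and 1.29-fold higher. LATS1 had 1138 and 762 reads and was 1.53-fold lower. SAV1, the scaffold of STK3 and STK4, was 2.76-fold higher with 1017 and 2879 reads, and the membrane adaptor FRMD6 was 2.81-fold higher with 3921 and 11283 reads, both just under the limit.

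NF2 was the exception in this group. It encodes merlin, a membrane-linked tumor suppressor that brings LATS kinases to the cell cortex and so restrains YAP. It had 2391 and 67 reads, 36.5-fold lower (95% interval 28.7 to 47.3), from 10.4 to 0.284 RPKM. Of all genes with at least 100 reads, 1.64% had a lower log2 fold change. The 10 nearest expressed protein-coding genes were taken after the value of NF2 was seen. Of these, 1 was more than 3-fold lower, RASL10A with 11 and 2 reads, against 11.7% of all genes. Their median log2 fold change was 0.05. WWC2, a relative of the adaptor WWC1 (KIBRA), was 3.82-fold lower with 7187 and 1926 reads, while WWC1 itself was 2.48-fold higher with 1795 and 4552 reads. TNIK, a kinase of the MAP4K group, was 4.06-fold higher with 139 and 578 reads.

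**Figure D4:**
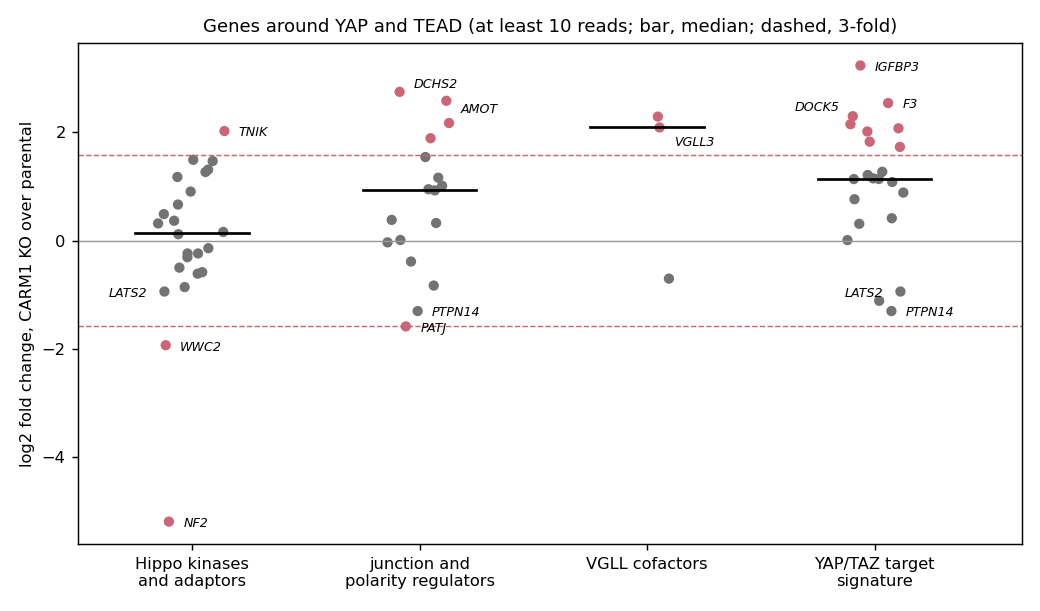
Log2 fold change of CARM1 KO over parental cells for each gene with at least 10 reads in 4 gene lists, with genes past 3-fold in red, a bar at each median and dashed lines at 3-fold. NF2 stands alone at -5.19, and the median of the target signature is 1.14 against 0.14 for the Hippo kinases and adaptors. The lists overlap, since LATS2 and PTPN14 are each in the signature and in another list.

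Junction and polarity proteins that feed into the pathway were measured for 21 genes, PTPN14 of the signature among them, and 17 had at least 10 reads. Of these, 4 (23.5%) were more than 3-fold higher and 1 (5.88%) was lower, against 12.8% and 11.7% of all genes. The median log2 fold change was 0.92, against -0.03 over all genes. The 4 higher genes were of low abundance, under 1 RPKM in both libraries. FAT4 and DCHS1, a pair of giant cadherins that bind each other, had 173 and 656 reads (3.70-fold higher) and 28 and 129 reads (4.50-fold higher). DCHS2, a relative of DCHS1, had 15 and 103 reads (6.71-fold higher), and AMOT, the founding angiomotin, had 8 and 49 reads (5.98-fold higher). The counting intervals of DCHS1 and AMOT began under the limit, at 2.97 and 2.81. AMOTL1, a relative more abundant than AMOT, had 1778 and 5300 reads and was 2.91-fold higher, under the limit. PATJ, a scaffold of the Crumbs polarity complex, had 1575 and 537 reads and was lower with a 95% interval of 2.72 to 3.32 that spans the limit.

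VGLL proteins compete with or substitute for YAP on TEAD factors. VGLL3 had 799 and 3477 reads, 4.25-fold higher (95% interval 3.93 to 4.60), while VGLL4, which represses TEAD targets, had 1252 and 787 reads and was 1.63-fold lower. VGLL2 had 2 and 10 reads, 4.88-fold higher with a 95% interval of 1.04 to 45.8. VGLL1 had 0 reads in both libraries, which allows up to 3 reads in each.

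The position of each gene was compared with its surroundings. For each of the 10 genes the 5 nearest protein-coding genes with at least 10 reads on either side were taken. CCN1, at 2.07 on the log2 scale, lay above all 10 of its neighbours, which had a median log2 fold change of 0.18 and a maximum of 1.29. ANKRD1, at 2.01, lay above the median of its own, -0.40, but within their range of -4.82 to 2.67. The upper end was SLC16A12, with 2 and 13 reads, and the next, PCGF5 with 245 and 920 reads, lay at 1.87. Of the 10, 2 were more than 3-fold higher and 2 more than 3-fold lower, against 12.8% and 11.7% of all genes. The neighbours of TEAD2 had a median of -0.89. Of the 10, 4 were more than 3-fold lower, against 11.7% of all genes, and 3 lay above 0. PPFIA3 was lower with 590 and 166 reads. The other lower ones had few reads: HRC (67 and 0), DKKL1 (20 and 5) and SLC6A16 (10 and 0). DKKL1 overlaps TEAD2 on the opposite strand, and the use of strand in the counting is not given. The neighbours with most reads, RPL13A (2848 and 3587) and PIH1D1 (1451 and 1925), were higher, within 3-fold. The neighbours of TEAD1 had a median of 0.98, which fell to 0.38 with 10 genes on either side. YAP1 lay on chromosome 11 from 101981178 to 102104155 among genes with a median of 1.90, of which 6 of 10 were more than 3-fold higher and 1 more than 3-fold lower, against 12.8% and 11.7% of all genes. ARHGAP42 had 138 and 1161 reads, BIRC3 had 95 and 520 reads and MMP1 had 5364 and 31273 reads. In the other direction, MMP10 had 328 and 10 reads and CFAP300 had 330 and 134 reads. YAP1 itself, at 0.32, was nearer to no change than this median. DNA copy number was not measured, and its part in these values was not tested.

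**Figure D5:**
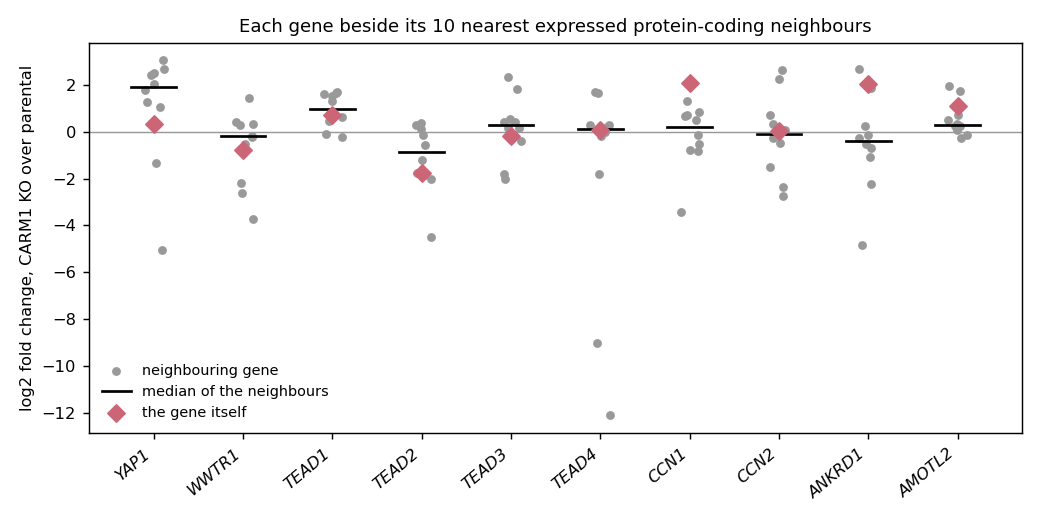
Log2 fold change of CARM1 KO over parental cells for each of the 10 genes (diamonds), its 10 nearest expressed protein-coding neighbours (grey points) and their median (bars). CCN1 lies above all of its neighbours, TEAD2 lies below the median of its own, and YAP1 at 0.32 lies below a neighbour median of 1.90.

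Genes that overlap the 10 on either strand had few reads. Annotated genes that overlap a member held at most 2.53% of that member's reads, reached by TEAD2 in parental cells, where CD37 and DKKL1 on the opposite strand had 4 and 20 reads. For ANKRD1, CCN1, TEAD3 and TEAD4 no overlapping gene was annotated.

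Markers of cell identity moved between the same libraries. Of 9 markers of epithelial ovarian cancer, 5 were more than 3-fold higher in CARM1 KO cells (PAX8, EPCAM, KRT7, KRT8 and CDH1) and 1, KRT19, was lower. Among all genes, 12.8% were higher and 11.7% lower. CDH1 was low in both libraries, with 3 and 53 reads (0.0159 and 0.274 RPKM). The summed level of the 9 was 344 RPKM in parental and 1069 RPKM in CARM1 KO cells. MUC16 was nearly absent, with 0 reads in parental and 1 read in CARM1 KO cells, and WT1 had 8 and 1 reads. Of 7 fibroblast markers 5 were more than 3-fold lower and 1 was higher, against 11.7% and 12.8% of all genes. Their summed level was 169 RPKM in parental and 2.53 RPKM in CARM1 KO cells. In parental cells it was carried by COL1A2, COL3A1 and PDGFRA with 16732, 14587 and 14326 reads. In CARM1 KO cells the same genes had 3, 1 and 2 reads. COL1A1, PDGFRB, DCN and LUM had 131, 132, 24 and 61 reads in parental cells, and 537, 142, 0 and 1 in CARM1 KO cells. Of 3 endothelial markers none passed the limit and CDH5 had 0 reads in both libraries, with summed levels of 0.0537 and 0.0555 RPKM. Of 4 blood markers CD3E and HBB had 0 reads in both and PTPRC had 6 and 0 reads, while CD68, a lysosomal gene also used as a macrophage marker, was more than 3-fold higher and carried the summed levels of 5.95 and 23.8 RPKM. The part of these marker changes in the levels of the YAP and TEAD genes was not tested.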

How the data were processed

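The RNA-Seq table holds 1 library each of parental and CARM1 KO A1847 cells. The authors used bowtie2 for alignment to hg19 and RSEM to estimate gene counts, deposited as whole numbers and not normalized. The release of the annotation and the use of strand are not given in the sources used here, and RSEM shares out reads that fit several genes. Identifiers were matched to GENCODE on GRCh37 for 55501 of 57736 genes. PECAM1, an endothelial marker, was not matched.

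Counts were scaled with TMM (edgeR 4.0.16, R 4.3.3). A count of 0 was set to 3 reads in a fold change. Intervals came from scipy 1.17.1. Lengths are unions of annotated exons. edgeR's quasi-likelihood test needs replicates and was not run; its exact test, with assumed coefficients of variation of 0.12 and 0.4, served as an alternative, as did other scalings (DESeq2 1.42.0 among them), minimums of 1, 50 and 100 reads, protein-coding genes only, stricter counting rules, 10 neighbours on either side in place of 5 and the longest transcript as length. The steps were tested on simulated data. Named genes were the 10 members, every gene past 3-fold in the lists and CARM1, and others are named beside them after their values were seen. The members and lists were chosen with earlier results of these data known. Chromatin data were not analysed here.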

Additional observations from a re-analysis of the deposited data

How the results depend on the processing

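With 1 library per condition, an assumed spread decided most counts. At a coefficient of variation of 0.4, edgeR's exact test left 0 of the 10 genes higher and 0 lower (2 and 1 without it), 0 Hippo kinases and adaptors higher and 1 lower, 0 junction and polarity regulators higher and 0 lower, 1 signature gene and 0 VGLL cofactors higher, and 543 genes higher and 888 lower of all genes, against 2372 and 2175. At 0.12 the VGLL count was 1 in place of 2, and the other counts stayed within 1.5 times. Where the whole counting interval had to lie past 3-fold, 0 of the 10 genes were lower, since that of TEAD2 began at 2.98, 2 junction and polarity regulators were higher and 0 lower, 1 VGLL cofactor was higher, and 1292 genes were higher and 1234 lower. PATJ lay within 3-fold with DESeq2 size factors and with upper-quartile scaling, leaving 0 lower junction and polarity regulators in each. At least 50 reads left 1 higher VGLL cofactor and 1219 lower genes, and at least 100 reads left 1, with 1366 higher and 964 lower genes. At least 1 read gave 3982 lower genes, and protein-coding genes only gave 1303. No result changed direction among those past the limit under the alternatives run. With 10 neighbours on either side, the median of the neighbours of TEAD1 was 0.38 in place of 0.98.

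No paired analysis was possible because each condition has 1 library, and none was left out. Depth limited several genes whose counting intervals are wide, among them AMOT, DCHS1, DCHS2, VGLL2, ANKRD2 and FOXF2.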

Other observations

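Relatives of the target genes were low or silent. CCN3, a matricellular relative of CCN1 and CCN2, had 79 reads in parental cells against 284 in CARM1 KO cells, 3.51-fold higher (95% interval 2.73 to 4.56). ANKRD2, a muscle relative of ANKRD1, had 4 and 30 reads, 7.33-fold higher with a 95% interval of 2.58 to 28.6, and ANKRD23 had 50 and 64 reads. CCN4 and CCN6 had 0 reads in both libraries, and CCN5 had 2 and 1. ANKRD1 and CCN1 were thus the abundant members of their families in these cells, with CCN2 beside CCN1. Among the signature genes under the limit, the matrix protein CCDC80 was 2.41-fold higher (5464 and 13485 reads), the stress gene GADD45A 2.31-fold higher (1015 and 2404 reads) and NT5E, the ectonucleotidase CD73, 2.20-fold higher (4959 and 11146 reads).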
